A study of Mus musculus with 203 samples.

Results

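A set of 10 genes with established roles in fat cells were followed through dissected mouse lung airways and lung parenchyma. They were Adipoq, Cfd, Car3, Plin1, Fabp4, Lep, Cidec, Ucp1, Pparg and Lipe, chosen by name as 10 of the 43346 gene identifiers in the deposited count table. RNA-seq had been performed on libraries from female BALB/c mice, with the age given as 18-20 weeks for every sample. Airway and parenchyma libraries came from the same 10 exposures and were separated by blunt dissection under a microscope. At 3 weeks, mice had received house dust mite extract (HDM) or phosphate buffered saline (PBS) through the nose on 5 days of each week (11 airway and 12 parenchyma PBS libraries, 10 of each tissue for HDM). At 11 weeks there were 8 exposures with 10 libraries per tissue, namely PBS or HDM (HDM given 3 times a week from week 4), each with room air (AIR) or cigarette smoke (CS) for 8 weeks, and each without or with dexamethasone (DEX), a synthetic glucocorticoid, during week 11. Mice given PBS and AIR were the untreated controls at 11 weeks. The labels do not say which airway and parenchyma library came from 1 mouse or which libraries share a mouse, so p-values measure the spread between libraries.

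White fat cells store triglyceride in a single large droplet, release fatty acids when hormones activate lipolysis and secrete hormones into the blood, while brown fat cells burn lipid to make heat. Fat lies beside the trachea, the main bronchi and the vessels of the mediastinum, and the parenchyma of a healthy mouse lung holds very few fat cells. Adipoq encodes adiponectin, Lep leptin and Cfd adipsin (complement factor D), which are secreted by fat cells. Plin1 encodes perilipin, which coats the lipid droplet, Cidec a protein that enlarges lipid droplets, and Lipe hormone-sensitive lipase. Fabp4 encodes a fatty acid carrier that capillary endothelium and macrophages also make, Car3 a carbonic anhydrase that is also abundant in skeletal muscle, and Ucp1 the uncoupling protein of brown fat. Pparg encodes the nuclear receptor that drives fat cell differentiation and that alveolar macrophages also need.

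In build GRCm38 (GENCODE M21) all 10 are protein-coding. Adipoq lies at chr16:23146536-23158028 (+), Cfd at chr10:79890853-79892655 (+), Lep at chr6:29060220-29073877 (+) and Ucp1 at chr8:83290352-83298452 (+). Cidec (chr6:113424634-113435760, -) and Pparg (chr6:115360951-115490399, +) lie on the same chromosome as Lep, Plin1 (chr7:79720218-79732903, -) and Lipe (chr7:25379527-25398710, -) on chromosome 7, and Car3 (chr3:14863512-14872523, +) and Fabp4 (chr3:10204088-10208576, -) on chromosome 3.

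The 250 bases before the start site are shown for 4 genes: Adipoq and Cfd, whose levels ran together across airway libraries, Lep, the hormone gene that was higher after dexamethasone, and Cidec, which changed in the parenchyma. They are from RefSeq on GRCm38.p6, and 8 of the 10 genes matched an entry (all but Car3 and Fabp4). Capitals mark matches on either strand to 5 motifs. These were TATAAA, which binds the TATA-binding protein, AGGTCA, the half-site of nuclear receptors such as the product of Pparg, and CCAAT, the motif of nuclear factor Y. The remaining motifs were TTNNGCAA, bound by C/EBP factors, and the E-box CACGTG.
Adipoq (chr16:23146286-23146535, +): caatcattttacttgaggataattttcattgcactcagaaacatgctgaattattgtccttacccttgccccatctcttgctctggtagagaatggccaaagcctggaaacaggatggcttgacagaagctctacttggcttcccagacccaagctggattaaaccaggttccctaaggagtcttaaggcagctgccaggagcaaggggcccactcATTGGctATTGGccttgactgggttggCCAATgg
Cfd (chr10:79890603-79890852, +): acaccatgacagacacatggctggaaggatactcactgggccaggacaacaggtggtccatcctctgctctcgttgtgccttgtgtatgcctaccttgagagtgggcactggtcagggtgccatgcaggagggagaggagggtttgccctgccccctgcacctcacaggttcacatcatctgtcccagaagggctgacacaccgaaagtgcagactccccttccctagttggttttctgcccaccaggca
Lep (chr6:29059971-29060220, +): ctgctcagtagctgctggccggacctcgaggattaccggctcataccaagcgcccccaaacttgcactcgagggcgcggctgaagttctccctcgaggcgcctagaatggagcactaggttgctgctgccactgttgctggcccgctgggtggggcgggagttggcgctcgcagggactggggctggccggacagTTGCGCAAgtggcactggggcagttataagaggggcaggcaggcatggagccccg
Cidec, most upstream start (chr6:113435761-113436010, -): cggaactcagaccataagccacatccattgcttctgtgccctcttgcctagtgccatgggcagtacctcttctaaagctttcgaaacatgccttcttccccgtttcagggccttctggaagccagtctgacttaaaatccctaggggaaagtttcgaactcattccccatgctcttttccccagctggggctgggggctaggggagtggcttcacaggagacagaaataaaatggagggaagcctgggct

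The Adipoq window held 3 matches to CCAAT, beginning 34, 27 and 7 bases before the start, and the Lep window held 1 palindromic match to TTNNGCAA, 55 bases before the start. No match was found in the Cfd window or the Cidec window shown, and the window of a second Cidec start (chr6:113434765-113435014, -), not shown, held 1 match to TTNNGCAA. Of 32851 RefSeq promoter windows of this length, 33.8% held CCAAT, 9.56% held TTNNGCAA, 14.0% held AGGTCA, 12.4% held TATAAA and 6.02% held CACGTG. These matches are descriptions of the letters only.

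Libraries held 13003087 to 40240680 counts (median 28090612), and values are given as counts-per-million (CPM) of the TMM-scaled library size. Summed smooth muscle and cartilage genes less alveolar genes (log2) ran from -18.13 to -6.44 in airway libraries and from -20.63 to -15.74 in parenchyma libraries, so the tissues overlapped on this score. The 4 airway libraries nearest the parenchyma were X109, X27, X31 and X183, and the 4 parenchyma libraries nearest the airways were X70, X90, X190 and X104. In library X70 (HDM with AIR, 11 weeks) skeletal muscle genes summed to 3574 CPM, against 7.18 CPM in X110 of the same group. Calls on the 10 genes without these 8 libraries are given where they differ.

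The question of the tissue comparison was how far each gene belonged to the dissected airways. Most of the genes were far higher in airways than in parenchyma, Lipe was moderately higher, and Pparg was at similar levels in both. In PBS-exposed mice at 3 weeks, 9 of the 10 genes were higher in airways (limma-voom, adjusted p below 0.05) and 0 were lower, beside 56.1% of all 17381 genes tested that differed in either direction. Adipoq, Plin1, Lep and Ucp1 did not reach the count filter within 3-week parenchyma and entered the test through their airway libraries. Neither the count nor the adjusted p-values of these genes are therefore evidence on their own. In bulk tissue, more fat cells and more RNA of these genes per cell cannot be told apart.

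Among the secreted products, Adipoq in PBS-exposed mice at 3 weeks ran from 12.1 CPM to 109.4 CPM in airways with a median of 39.7 CPM, and from 0.114 CPM to 0.955 CPM in parenchyma with a median of 0.714 CPM. All 11 airway libraries were above all 12 parenchyma libraries, a ratio of means of 81.05-fold and a log2 fold change (log2FC) of 6.25 (SE 1.02, adjusted p = 2.1e-06). Cfd had a median of 124.6 CPM in airways (51.6 CPM to 288 CPM) and 2.26 CPM in parenchyma (1.03 CPM to 4.87 CPM), with log2FC 5.97 (SE 0.75, adjusted p = 1.7e-08). Transcript levels of both were separated without overlap in these groups. Lep was the lowest of the 10 in airways, with a median of 1.87 CPM (0.609 CPM to 5.58 CPM), and in parenchyma it never passed 3 counts. Over the series Lep stood at 3 counts or fewer in every parenchyma library and at 0 in 82 of them, so only a bound can be given, at least 18.0-fold higher in airways in PBS-exposed mice at 3 weeks against a floor of 3 counts.

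Of the lipid droplet and lipid handling genes, Plin1 had a median of 5.15 CPM in airways (1.93 CPM to 14.4 CPM) and 0.154 CPM in parenchyma (0 CPM to 0.415 CPM), log2FC 5.91 (SE 0.96, adjusted p = 1.9e-06). Car3 was among the most abundant, with a median of 219 CPM in airways (72.9 CPM to 543 CPM) against 3.62 CPM in parenchyma (0.95 CPM to 6.9 CPM), log2FC 6.10 (SE 0.74, adjusted p = 9.7e-09). Fabp4 and Cidec differed from these in having a parenchymal level well above the floor. Fabp4 ran from 8.74 CPM to 14.8 CPM in parenchyma (median 13.3 CPM) and from 83 CPM to 712 CPM in airways (median 181.3 CPM), without overlap and with log2FC 4.11 (SE 0.55, adjusted p = 5.4e-08). Cidec ran from 7.1 CPM to 18.4 CPM in parenchyma (median 10.1 CPM) and from 14.7 CPM to 63.1 CPM in airways (median 29.2 CPM), log2FC 1.49 (SE 0.29, adjusted p = 3.6e-05), and 10 of the 11 airway libraries lay above every parenchyma library. Lipe, the lipase, differed less, with medians of 39.3 CPM and 23.8 CPM and log2FC 0.71 (SE 0.11, adjusted p = 1.6e-06). Pparg had medians of 11 CPM in airways and 9.73 CPM in parenchyma with overlapping groups (log2FC 0.13, 95% interval -0.24 to 0.51, adjusted p = 0.56).

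Ucp1 was present in some airway libraries and nearly absent from others. In PBS-exposed mice at 3 weeks it ran from 0.359 CPM to 118.3 CPM in airways (median 5.82 CPM) and from 0 CPM to 1.05 CPM in parenchyma (median 0.139 CPM), log2FC 4.61 (SE 1.56, adjusted p = 0.011). Over the series 64 airway libraries reached 1 CPM and 44 reached 10 CPM, against 3 and 0 parenchyma libraries. The highest airway library held 652 CPM and 3 airway libraries held 0 counts. Every one of the 10 airway groups contained libraries below 10 CPM and at least 3 above it.

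**Figure D1:**
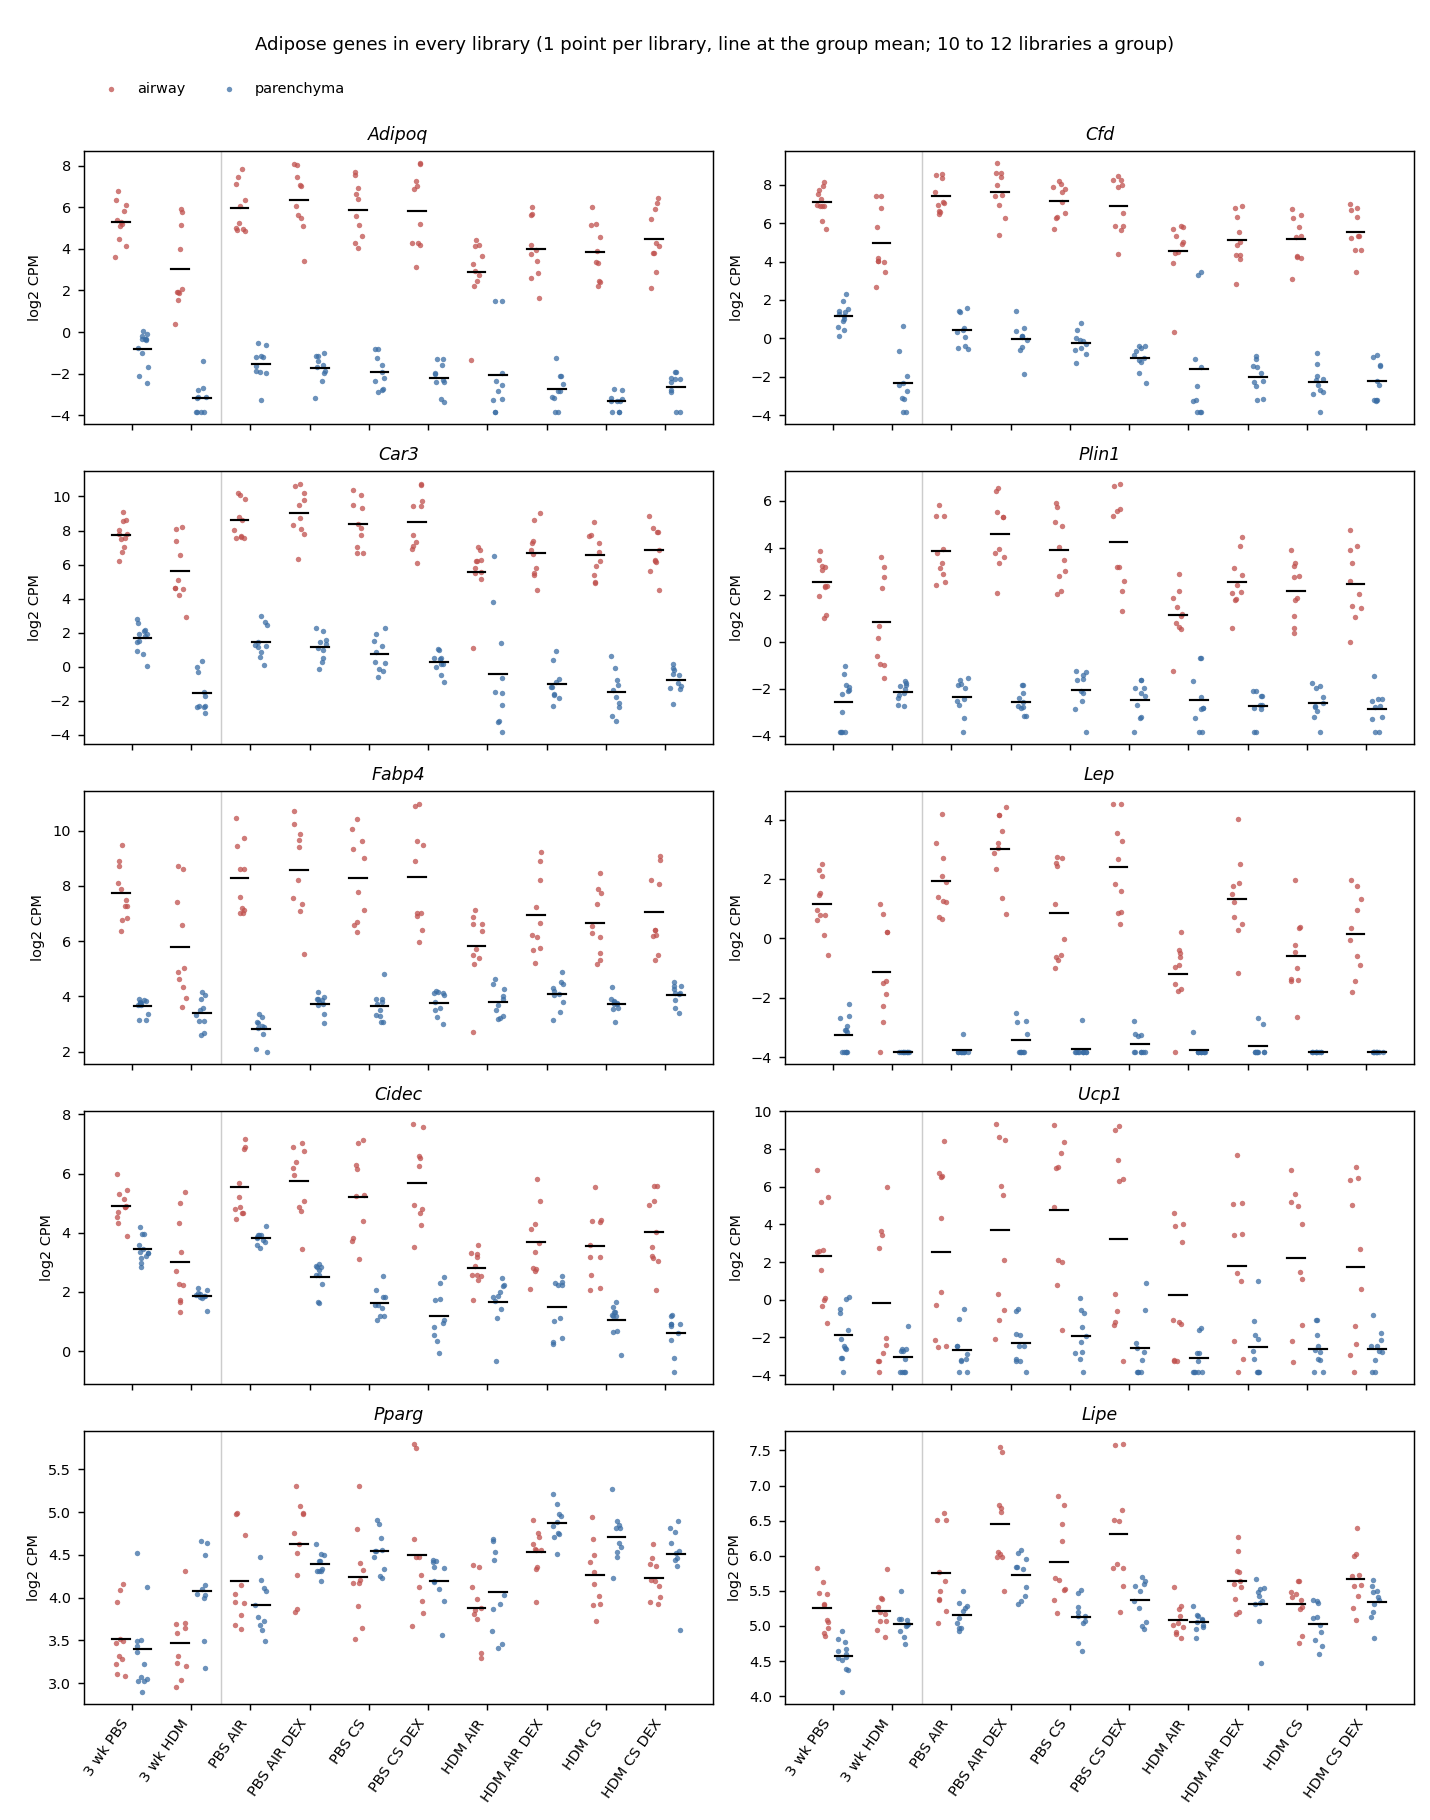
Each panel plots 1 gene, with log2 CPM (prior count 2) on the y axis and the 10 exposures on the x axis, the vertical line separating 3 weeks from 11 weeks. Each point is 1 library (red airway, blue parenchyma) and each line a group mean; Adipoq, Cfd, Car3, Plin1 and Lep sit far apart in the tissues, Ucp1 airway libraries are scattered over the whole axis, and Pparg tissues overlap.

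The other exposures gave the same direction for most of the genes. With HDM at 3 weeks 7 genes were higher in airways and 1, Pparg (log2FC -0.58, SE 0.18, adjusted p = 0.01), was lower, beside 36.2% of all genes. Cidec passed narrowly there (log2FC 1.14, SE 0.45, adjusted p = 0.044) and lost the call in 12 of 43 fits that each left out 1 library, while Ucp1 (log2FC 3.25, SE 2.34, adjusted p = 0.28) and Lipe (log2FC 0.23, SE 0.12, adjusted p = 0.12) did not pass. Averaged over the 8 exposures at 11 weeks, 9 genes were higher in airways and 0 lower, beside 72.6% of all genes, with Adipoq at log2FC 7.80 (SE 0.64), Car3 at 7.74 (SE 0.41), Cfd at 7.72 (SE 0.46), Plin1 at 6.32 (SE 0.55), Ucp1 at 5.69 (SE 1.41), Fabp4 at 3.82 (SE 0.19), Cidec at 2.82 (SE 0.22) and Lipe at 0.53 (SE 0.07). For Lep, in the same count, a bound of at least 45.5-fold stands for PBS AIR mice in place of a fitted value. Lep and Plin1 at 11 weeks, and Adipoq, Plin1, Lep and Ucp1 with HDM at 3 weeks, again entered the test through their airway libraries. Pparg again did not pass (log2FC -0.07, 95% interval -0.20 to 0.05, adjusted p = 0.29).

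Adipoq, Cfd, Car3 and Plin1 were without overlap between the tissues in 9 of the 10 exposures, Fabp4 and Lep in 8, Cidec in 6, and Ucp1, Pparg and Lipe in 0. The exception was HDM with AIR at 11 weeks for the first 4 genes, and also HDM at 3 weeks for Fabp4 and Lep. In that group airway library X109 had Adipoq at 0.32 CPM and Car3 at 2.06 CPM, within the parenchymal range. Parenchyma library X110 had Adipoq at 2.74 CPM, Cfd at 10.9 CPM and Car3 at 14.0 CPM, and X70 had 2.72 CPM, 9.81 CPM and 90.9 CPM, where the group medians were 0.0874 CPM, 0.0715 CPM and 0.281 CPM. X70 was also the library rich in skeletal muscle genes, and X110 was not. The part of admixed tissue in these values was not tested. How many of all genes separated between the tissues without overlap was not counted. The counts of exposures are therefore not read as particular to these genes. Lep in every parenchyma library and Plin1 in most stood at 3 counts or fewer, so their separation rests partly on the floor.

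Compared per kb of exon sequence, airway levels averaged over libraries were highest for Cfd (129.1 CPM per kb) and Car3 (112.6 CPM per kb), followed by Fabp4 (70.99 CPM per kb), Adipoq (39.5 CPM per kb), Ucp1 (38.5 CPM per kb) and Cidec (19.7 CPM per kb). Lipe (9.63 CPM per kb), Pparg (6.46 CPM per kb), Plin1 (3.25 CPM per kb) and Lep (1.10 CPM per kb) were lower. The place of Ucp1 rested on its highest libraries. Its median over airway libraries was 4.26 CPM, against 31.2 CPM for Adipoq and 22.25 CPM for Cidec. The place of Fabp4 rested on the length used, since it stood at 356 CPM per kb of its principal transcript, above Car3 at 192.1 CPM per kb and Cfd at 129.1 CPM per kb. In parenchyma Pparg (6.84 CPM per kb), Lipe (6.28 CPM per kb), Fabp4 (3.02 CPM per kb) and Cidec (2.82 CPM per kb) led, and Lep was last at 0.004 CPM per kb.

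Other fat genes were described by 3 lists. Of 30 adipocyte lipid and hormone genes, 18 were higher and 8 lower in airways than in parenchyma of PBS-exposed mice at 3 weeks (median log2FC 0.58), and of 15 brown adipocyte genes 14 were tested and 13 were higher (median 2.12), where the median of all genes was -0.06. The 4 genes of the first list with the largest difference were Pck1, an enzyme of glyceroneogenesis (log2FC 6.55, SE 1.07), Retn, which encodes resistin (5.90, SE 0.88), Acvr1c (4.73, SE 0.59) and the glycerol channel Aqp7 (4.51, SE 0.68). Those of the brown list were Ebf2, a regulator of brown fat identity (4.72, SE 0.66), Otop1 (4.22, SE 0.63), the fatty acid elongase Elovl3 (3.82, SE 0.72) and Cidea, a droplet protein (2.95, SE 0.42). Of 9 lipolysis and receptor genes 2 were higher and 7 lower (median -0.24), among them Adrb1 (-0.74, SE 0.11), which encodes an adrenergic receptor, Irs1 (-0.47, SE 0.08), which relays the insulin signal, and the leptin receptor Lepr (-0.37, SE 0.08). All 11 named list genes passed with adjusted p no higher than 0.0003.

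The HDM comparison asked which of these genes changed with the allergen. In airways Adipoq, Cfd, Car3, Plin1, Fabp4, Lep and Cidec fell at both times, while Pparg and Ucp1 did not pass. At 3 weeks 7 of the 10 genes were lower with HDM and 0 higher, beside 71.2% of all genes that changed in either direction (5938 of 16977 lower). At 11 weeks 8 were lower and 0 higher, beside 68.6% of all genes (6364 of 18015 lower). The share of the genes called was near the background. With a log2FC of at least 1 in size as well, 3882 of all genes passed at 3 weeks and 2022 at 11 weeks.

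Adipoq in HDM-exposed airways at 3 weeks ran from 1.24 CPM to 60.5 CPM with a median of 3.94 CPM, against 12.1 CPM to 109.4 CPM and a median of 39.7 CPM with PBS. The groups overlapped, since some HDM libraries were as high as the PBS controls, and the mean was 2.56-fold lower (log2FC -2.29, SE 0.61, adjusted p = 0.0022). Lep had a median of 0.287 CPM with HDM (0 CPM to 2.15 CPM) against 1.87 CPM with PBS, log2FC -2.64 (SE 0.66, adjusted p = 0.0012). Cfd fell by 2.12 (SE 0.54, adjusted p = 0.0014), Car3 by 2.08 (SE 0.59, adjusted p = 0.0034), Fabp4 by 1.94 (SE 0.63, adjusted p = 0.009), Cidec by 1.93 (SE 0.42, adjusted p = 0.00037) and Plin1 by 1.79 (SE 0.61, adjusted p = 0.012) on the log2 scale. All 7 overlapped between HDM and PBS. With edgeR's quasi-likelihood test 4 of the 10 were called, and Adipoq, Plin1 and Fabp4 were not among them. Ucp1 (log2FC -3.10, 95% interval -6.38 to 0.17, adjusted p = 0.083), Pparg (-0.01, 95% interval -0.36 to 0.33) and Lipe (-0.02, 95% interval -0.30 to 0.25) did not pass.

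At 11 weeks the comparison within room air was the clearest. Adipoq ran from 28.8 CPM to 231 CPM in PBS AIR airways (median 52.3 CPM) and from 0.32 CPM to 21.1 CPM in HDM AIR airways (median 8.61 CPM), so every HDM library was below every PBS library, and the mean was 8.24-fold lower. The same separation was seen for Cfd (5.99-fold lower), Car3 (7.68-fold), Lep (11.2-fold) and Cidec (8.12-fold), and in that exposure Plin1 and Fabp4 overlapped. How many of all genes separated in this way was not counted, so the separation is not read as particular to these genes. Of all genes 68.6% were called for HDM in airways at 11 weeks. In the other backgrounds all 10 genes overlapped, and the fall of Adipoq was 4.96-fold with dexamethasone, 3.99-fold with smoke and 3.07-fold with both. Averaged over the 4 backgrounds, the log2FC was -2.23 for Adipoq (SE 0.34, adjusted p = 2.1e-08), -2.17 for Cfd (SE 0.27, adjusted p = 3.3e-11), -2.22 for Car3 (SE 0.32, adjusted p = 3.1e-09) and -2.27 for Lep (SE 0.38, adjusted p = 2.7e-07). Plin1 (-2.08, SE 0.38), Fabp4 (-1.76, SE 0.32), Cidec (-2.04, SE 0.28) and Lipe (-0.68, SE 0.12) also fell. Ucp1 (-2.21, 95% interval -4.54 to 0.13, adjusted p = 0.089) and Pparg (-0.16, 95% interval -0.36 to 0.05, adjusted p = 0.18) did not pass.

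**Figure D2:**
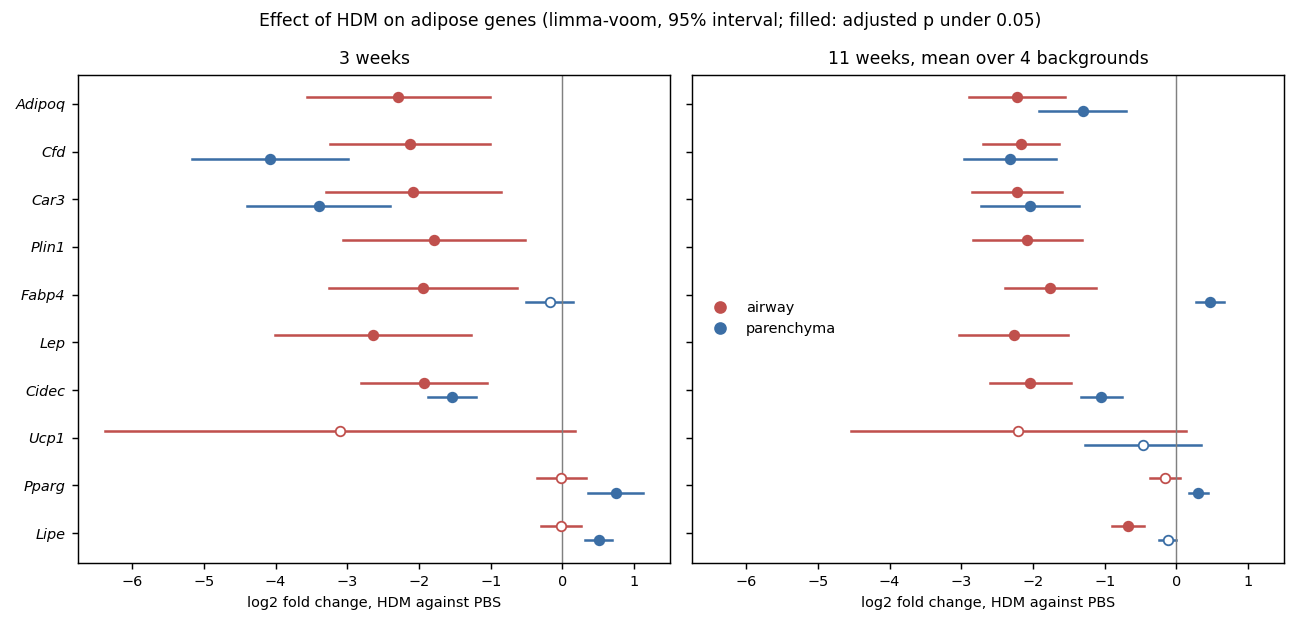
Log2 fold change of HDM against PBS (x axis) for each gene (y axis) at 3 weeks and, averaged over 4 backgrounds, at 11 weeks, with 95% intervals; red is airway, blue parenchyma, and filled points passed the adjusted p threshold of 0.05. The airway values of 7 genes sit between about -1.8 and -2.6 at both times, Pparg and Lipe lie near or above 0 except for airway Lipe at 11 weeks, and Fabp4 has opposite signs in the tissues at 11 weeks; genes with no blue point were not tested in parenchyma.

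Other tissue markers moved in the same airway libraries. All 10 cardiac muscle genes, which in mice also mark the sleeves of the pulmonary veins, were lower with HDM at 3 and at 11 weeks (median log2FC -2.54 and -1.65). Their summed level had a median of 804 CPM with PBS (364 CPM to 5596 CPM) and 249 CPM with HDM (43.02 CPM to 1089 CPM) at 3 weeks. Of 6 smooth muscle genes 0 passed at 3 weeks and 6 were lower at 11 weeks, of 7 cartilage genes 6 were lower at 11 weeks (0 of 4 tested at 3 weeks), and of 8 alveolar type II genes 0 passed at 3 weeks and 7 were higher at 11 weeks. Airway epithelial genes were lower for 5 and 6 of 9. These counts stand beside 71.2% of all genes called in either direction at 3 weeks and 68.6% at 11 weeks. The part of these other tissues in the fall of the fat genes was not tested.

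Other fat genes in airways were read against the 71.2% of all genes called at 3 weeks and 68.6% at 11 weeks, and the shares called were lower than or near these at 3 weeks. With HDM 18 of 30 adipocyte lipid and hormone genes were lower and 0 higher at 3 weeks (median log2FC -0.78), and 23 were lower and 5 higher at 11 weeks (median -0.80), beside medians of -0.01 for all genes. Of 14 brown adipocyte genes tested, 8 were lower at 3 weeks and 13 at 11 weeks, with 0 higher at either time. Pck1 (log2FC -2.72 and -2.35 at 3 and 11 weeks), Retn (-2.45 and -2.03), Acvr1c (-2.08 and -2.003), Aqp7 (-2.39 and -1.90), Ebf2 (-2.25 and -1.96) and Otop1 (-2.74 and -2.15) fell by about as much as Adipoq, whereas Cidea (-0.41 and -0.82) and Elovl3 (-1.58 and -2.29) passed at 11 weeks only, and that difference between times was not tested. Of 9 lipolysis and receptor genes, 5 were lower and 2 higher at 3 weeks, and 7 were lower and 1 higher at 11 weeks. Irs1 fell by 1.79 and 0.62 on the log2 scale, Lepr by 1.29 and 0.40, and Adrb1 by 1.32 and 0.31.

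In parenchyma the same comparison gave a mixed picture, with Cfd, Car3 and Cidec lower and Pparg higher at both times. At 3 weeks 6 of the 10 genes had enough counts to be tested, and 3 were lower and 2 higher, beside 80.8% of all genes. Cfd ran from 1.03 CPM to 4.87 CPM with PBS and from 0 CPM to 1.51 CPM with HDM, a median of 2.26 CPM against 0.0972 CPM, log2FC -4.08 (SE 0.53, adjusted p = 1.2e-07). Car3 fell from a median of 3.62 CPM to 0.182 CPM (log2FC -3.40, SE 0.48, adjusted p = 5.4e-07). With HDM the median of Cfd lay at about the floor of 3 counts and that of Car3 little above it. The sizes of these falls therefore rest partly on the floor. For Cfd and Car3 9 of 10 HDM libraries lay below every PBS library, with library X184 the highest for both. Cidec was without overlap, from 7.1 CPM to 18.4 CPM with PBS and from 2.49 CPM to 4.29 CPM with HDM, 3.11-fold lower (log2FC -1.53, SE 0.16, adjusted p = 3.6e-09). How many of all genes were without overlap here was not counted. Pparg rose from a median of 9.73 CPM to 16.8 CPM (log2FC 0.75, SE 0.19, adjusted p = 0.00075) and Lipe from 23.8 CPM to 32.4 CPM (log2FC 0.51, SE 0.09, adjusted p = 1.3e-05), both with overlap. Fabp4 did not pass (log2FC -0.18, SE 0.16, adjusted p = 0.31).

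Markers of other cell types moved in the same parenchyma libraries. Of 10 alveolar macrophage genes 8 were higher with HDM at 3 weeks and 0 lower, and their summed level ran from 1176 CPM to 2319 CPM with PBS (median 1514 CPM) and from 4378 CPM to 27210 CPM with HDM (median 9294 CPM). All 6 alveolar type I genes and 9 of 10 lung endothelial genes were lower, with summed medians of 6017 CPM and 2477 CPM for the former and 2060 CPM and 1014 CPM for the latter. At 11 weeks 7 of the 10 macrophage genes were higher and 1 lower. Of all genes 80.8% were called at 3 weeks (6483 of 16343 higher and 6720 lower) and 65.6% at 11 weeks. The share of macrophage genes called at 3 weeks was near that background. The part of these cell types in the values of Pparg, Lipe, Fabp4 and Cidec was not tested.

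Adipoq, Plin1, Lep and Ucp1 fell short of the count filter in parenchyma at 3 weeks. Adipoq held 2 to 23 counts in PBS libraries and 0 to 9 in HDM libraries, with medians of 0.714 CPM and 0.0418 CPM and a permutation p of 4e-05 for this gene alone. Plin1 stood at medians of 0.154 CPM and 0.165 CPM.

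At 11 weeks 8 genes were tested in parenchyma, and 4 were lower and 2 higher with HDM, beside 65.6% of all genes. Cfd (log2FC -2.32, SE 0.32, adjusted p = 1.4e-09), Car3 (-2.04, SE 0.34, adjusted p = 2.8e-07), Adipoq (-1.31, SE 0.31, adjusted p = 0.00012) and Cidec (-1.05, SE 0.14, adjusted p = 9.4e-10) fell, while Fabp4 (0.47, SE 0.10, adjusted p = 2.5e-05) and Pparg (0.30, SE 0.07, adjusted p = 3.6e-05) rose. The arithmetic means of HDM AIR for Adipoq (0.601 CPM against 0.318 CPM), Cfd (2.16 CPM against 1.49 CPM) and Car3 (10.9 CPM against 3.27 CPM) went the other way from the fitted log2FC, because libraries X70 and X110 held most of the sum. The medians were lower with HDM, at 0.0874 CPM against 0.308 CPM for Adipoq and 0.0715 CPM against 1.23 CPM for Cfd. Both HDM medians lay at about the floor of 3 counts, so the sizes of these falls rest partly on it.

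The HDM effect was compared between tissues by its own test. At 3 weeks Lipe alone differed (airway effect less parenchyma effect -0.48, SE 0.16, adjusted p = 0.035), beside 17.3% of all genes, and the call was lost when any of 5 libraries was left out. At 11 weeks Fabp4 (-2.23, SE 0.37, adjusted p = 3e-07), Lep (-1.996, SE 0.85, adjusted p = 0.048), Pparg (-0.47, SE 0.12, adjusted p = 0.0011) and Lipe (-0.56, SE 0.13, adjusted p = 0.00023) differed, beside 43.2% of all genes. Fabp4 was the clearest of these, falling in airways and rising in parenchyma. The value for Lep rests on parenchyma libraries at the floor, and it did not pass with edgeR's quasi-likelihood test, with a filter at 10 CPM or without the 8 libraries near the other tissue. Adipoq, Cfd and Car3 fell in both tissues, and their difference did not pass (adjusted p = 0.59, 0.92 and 0.87 at 11 weeks). By permutation on log2 CPM, Adipoq differed between the tissues (-1.36, permutation p = 0.00059), and 7 of the 10 genes were called in that way and 9 with DESeq2, in place of 4.

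The smoke comparison asked what CS did at 11 weeks, averaged over the other treatments. In airways 0 of 10 genes passed (limma-voom, 0 also at an unadjusted p under 0.05), beside 13.5% of all genes, and edgeR's quasi-likelihood test and DESeq2 also called 0. For Adipoq the log2FC was 0.20 (95% interval -0.48 to 0.87), for Car3 0.10 (95% interval -0.53 to 0.73), for Lep -0.58 (95% interval -1.34 to 0.19) and for Ucp1 0.93 (95% interval -1.41 to 3.26). Medians of Adipoq were 52.3 CPM in PBS AIR and 66.6 CPM in PBS CS, with ranges of 28.8 CPM to 231 CPM and 16.2 CPM to 206 CPM.

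In parenchyma 2 of 8 genes tested passed with smoke, beside 34.6% of all genes. Cidec fell (log2FC -1.29, SE 0.14, adjusted p = 9.4e-12) and Pparg was higher on average (0.17, SE 0.07, adjusted p = 0.031), a call lost in fits that joined the tissues and without the 8 libraries nearest the other tissue. The average for Pparg joins opposite signs, with smoke effects of 0.63 in PBS mice and 0.62 in HDM mice without dexamethasone and of -0.19 (95% interval -0.46 to 0.07) and -0.36 (95% interval -0.62 to -0.11) with it. In untreated PBS AIR mice Cidec ran from 11.2 CPM to 18.6 CPM (median 14.2 CPM), and every library of that group was above every library with smoke alone (2.01 CPM to 5.74 CPM, median 2.88 CPM), with HDM alone (0.72 CPM to 5.54 CPM, median 3.55 CPM) and with dexamethasone alone (3.03 CPM to 7.55 CPM, median 6.28 CPM). Means were 4.47-fold lower with smoke, 4.13-fold lower with HDM and 2.42-fold lower with dexamethasone. These 3 comparisons share the PBS AIR libraries. How many of all genes separated in this way was not counted, so the separation is not read as particular to Cidec.

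**Figure D3:**
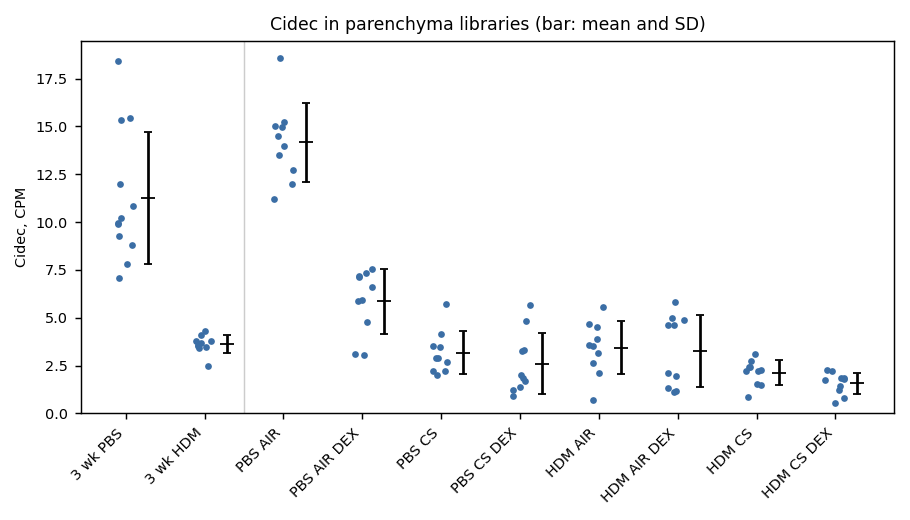
Cidec in parenchyma libraries, with CPM on the y axis starting at 0 and the 10 exposures on the x axis; each point is 1 library and each bar the group mean and SD (10 to 12 libraries). PBS AIR sits at 14.2 ± 2.06 CPM and the other 11-week groups have means between 1.57 CPM and 5.86 CPM.

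On average the HDM effect on Cidec was smaller in mice that also had smoke. Without dexamethasone its log2FC was -2.14 in room air (95% interval -2.59 to -1.69) and -0.57 with smoke (95% interval -1.18 to 0.03). With dexamethasone the values lay closer, at -0.94 in room air (95% interval -1.47 to -0.40) and -0.54 with smoke (95% interval -1.21 to 0.13). Whether dexamethasone changed this gap was not tested. The interaction of HDM and smoke in parenchyma averages over mice without and with dexamethasone, and was added after the data had been seen. It was 0.98 (SE 0.29, adjusted p = 0.0038) for Cidec and -0.48 (SE 0.20, adjusted p = 0.044) for Fabp4, beside 41.5% of all genes. The Fabp4 call was lost in 6 alternatives, among them the fit without libraries X173 and X174. Fabp4 in parenchyma stood at 7.28 ± 2.03 CPM (SD, n = 10) in PBS AIR and at 13.3 ± 5.80 CPM to 17.9 ± 6.13 CPM (SD, n = 10) in the other 7 groups. Its log2FC from PBS AIR was 1.04 with HDM (95% interval 0.61 to 1.47), 0.84 with smoke (95% interval 0.40 to 1.28) and 0.93 with dexamethasone (95% interval 0.50 to 1.37), again against the same controls.

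Pparg in parenchyma showed an interaction of smoke and dexamethasone. With room air dexamethasone raised it from 15.3 ± 3.39 CPM to 21.1 ± 1.89 CPM in PBS mice and from 17.5 ± 5.89 CPM to 29.4 ± 4.18 CPM in HDM mice (SD, n = 10 each). With smoke it went from 23.5 ± 3.85 CPM to 18.6 ± 3.17 CPM and from 26.6 ± 5.46 CPM to 23.3 ± 4.90 CPM (SD, n = 10 each). The interaction was -0.91 (SE 0.13, adjusted p = 1.3e-06), the only 1 of 8 tested genes to pass, beside 6.12% of all genes. For HDM and dexamethasone in parenchyma 0 of 8 passed, beside 4.82% of all genes. In airways 0 of 10 passed for HDM and smoke (19.6% of all genes), for HDM and dexamethasone (3.62%) and for smoke and dexamethasone (0.161%). The Adipoq interaction of HDM and smoke in airways was 1.01 (SE 0.68, adjusted p = 0.31).

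The dexamethasone comparison asked what a week of the glucocorticoid did to these genes. In airways leptin was the hormone that rose, with Lipe and Pparg, 3 of 10 genes higher and 0 lower, beside 38.8% of all genes. Lep had medians of 3.08 CPM in PBS AIR (1.4998 CPM to 18.2 CPM) and 8.68 CPM with dexamethasone added (1.68 CPM to 21.6 CPM), and 0.453 CPM in HDM AIR (0 CPM to 1.09 CPM) and 2.51 CPM with dexamethasone (0.371 CPM to 16.1 CPM). Groups overlapped in each pair, and the average log2FC was 1.60 (SE 0.38, adjusted p = 0.00044). It was 2.87 in HDM AIR mice (95% interval 0.95 to 4.79) and 0.82 in HDM CS mice (95% interval -0.99 to 2.63) and the difference between these 2 values was not tested. Lipe rose by 0.50 (SE 0.12, adjusted p = 0.00026) and Pparg by 0.33 (SE 0.10, adjusted p = 0.0089). Adipoq (0.55, 95% interval -0.13 to 1.22, adjusted p = 0.20), Plin1 (0.72, 95% interval -0.04 to 1.48, adjusted p = 0.13) and Ucp1 (0.22, 95% interval -2.12 to 2.56, adjusted p = 0.90) did not pass.

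Of the other adipocyte lipid and hormone genes 13 of 30 were higher and 0 lower in airways with dexamethasone (median log2FC 0.32, all genes 0.01). This stood beside 38.8% of all genes called in either direction (3474 of 18015 higher), so the share called was near the background. Irs1 rose (0.32, SE 0.05) and Lepr fell (-0.20, SE 0.06), while Retn (0.50, SE 0.28, adjusted p = 0.16) and Pck1 (0.72, SE 0.60, adjusted p = 0.36) did not pass. In parenchyma 3 genes, Fabp4 (0.41, SE 0.10, adjusted p = 0.00041), Lipe (0.33, SE 0.06, adjusted p = 2e-06) and Pparg (0.18, SE 0.07, adjusted p = 0.023), were higher and Cidec (-0.59, SE 0.14, adjusted p = 0.00039) was lower, beside 43.7% of all genes. With both tissues in 1 fit, or all libraries in 1 fit, 1 of the genes was called, namely Lipe, and without the 8 libraries nearest the other tissue Pparg was not called. The Pparg value averages effects of 0.48 and 0.79 in room air and of -0.35 (95% interval -0.61 to -0.09) and -0.20 (95% interval -0.45 to 0.05) with smoke, in PBS and HDM mice respectively. Between tissues 0 of 10 smoke effects (0.899% of all genes) and 0 of 10 dexamethasone effects (0.268% of all genes) differed with limma-voom, while 2 and 2 passed with edgeR's quasi-likelihood test and 4 and 4 with DESeq2. At an unadjusted p under 0.05 Cidec differed for both.

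The spread between libraries was as marked as the means. In airways the standard deviation of log2 CPM around the group mean was 1.15 to 1.48 for Adipoq, Cfd, Car3, Plin1, Fabp4, Lep and Cidec and 3.90 for Ucp1, where the median of 15349 genes with a mean of at least 1 CPM was 0.23. Ucp1 was first of these genes and Adipoq 89th. Pparg (0.45) and Lipe (0.49) stood at the 82.6th and 85.4th percentile. The coefficient of variation of Adipoq within a group had a median of 86.1% and was at least 62.4%, and the ratio of the highest to the lowest airway library of the series was 860-fold. For Ucp1 the median coefficient was 153.7%.

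In parenchyma the mean absolute deviation of log2 CPM was smaller. For Adipoq it was 1.16 in airways and 0.612 in parenchyma, for Fabp4 1.19 and 0.314 and for Ucp1 3.30 and 0.886 (each with a permutation p of 1e-05, the lower limit of 100000 resamples). The parenchymal deviation of Lep (0.163, against 1.05 in airways) was set by the floor, with 82 libraries at 0 counts, and 68 libraries for Ucp1, 57 for Plin1 and 50 for Adipoq stood at 3 counts or fewer, which limits the deviation they can show. Of the 10 genes 8 had a larger deviation in airways after Benjamini-Hochberg adjustment, with Pparg (0.323 and 0.243, adjusted p = 0.041) just passing. Cfd (0.925 and 0.759, adjusted p = 0.172) and Car3 (1.09 and 0.86, adjusted p = 0.0835) did not pass. At a prior count of 0.5 in place of 2, 5 of 10 passed, since libraries at 0 counts then lie further from the rest.

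Within airway groups the fat genes rose and fell together from library to library. With both genes centred on their group means, Adipoq correlated across all airway libraries of the series with Car3 (r = 0.987, rho = 0.985), Fabp4 (r = 0.975, rho = 0.976), Cfd (r = 0.969, rho = 0.964) and Plin1 (r = 0.956, rho = 0.958). Cidec (r = 0.917, rho = 0.941), Lep (r = 0.884, rho = 0.883) and Ucp1 (r = 0.866, rho = 0.876) followed. Each of these 7 had a permutation p of 1e-05 (the smallest possible; 1.8e-05 adjusted over 18 relations), and without the 2 libraries farthest from the median r stayed between 0.878 and 0.986. Lipe (r = 0.719, rho = 0.77, permutation p = 1e-05) was looser, and Pparg (r = 0.334, rho = 0.356, permutation p = 0.00141, adjusted p = 0.00192) the loosest. The points share their library, so a gain in one transcript class moves all of them. Within single groups of 10 or 11 libraries, r with Adipoq ran from 0.962 to 0.998 for Car3 and from -0.512 to 0.949 for Pparg.

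In the parenchyma libraries Adipoq correlated with Car3 (r = 0.742, rho = 0.625) and Cfd (r = 0.736, rho = 0.575), both with permutation p = 1e-05, and r was 0.616 and 0.592 without the 2 farthest libraries. Fabp4 (r = 0.115, rho = 0.08, permutation p = 0.323), Cidec (r = -0.037, rho = -0.092, permutation p = 0.765), Lipe (r = -0.056, rho = -0.049, permutation p = 0.522) and Pparg (r = -0.129, rho = -0.052, permutation p = 0.305) did not pass. The 4 genes with a parenchymal level well above the floor were the ones without a relation there that passed. Adipoq itself stood at 3 counts or fewer in 50 of the parenchyma libraries. That limits every relation in this tissue, also those that did not pass. At these counts the weak values for Plin1, Ucp1 and Lep (r of 0.373, 0.334 and 0.295) are not read further.

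**Figure D4:**
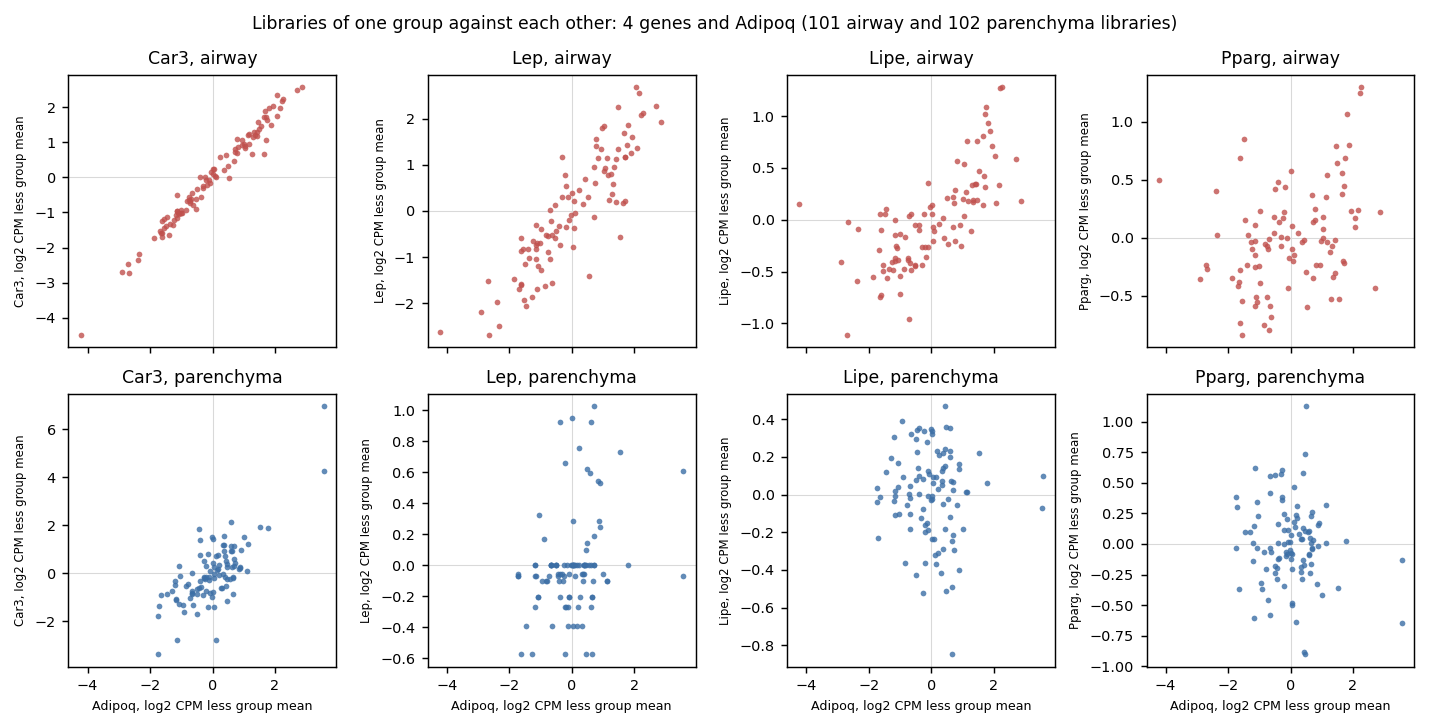
Log2 CPM of Car3, Lep, Lipe and Pparg less the group mean (y axes) against that of Adipoq (x axes), with all airway libraries in red above and all parenchyma libraries in blue below. Car3 follows Adipoq closely in airways (r = 0.987) and Pparg does so weakly (r = 0.334); in parenchyma the 2 rightmost points are X70 and X110.

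Outside the 10, the genes most like Adipoq over the airway libraries among 29507 genes were Retn (r = 0.972), Acsm3 (0.953), Aqp7 (0.940), Ephx2 (0.934), Thrsp (0.931), Adig (0.929), Acvr1c (0.927), Pck1 (0.926), Cox8b (0.926) and A530016L24Rik (0.920). In parenchyma the closest of 28794 genes were Mup9 (r = 0.672) and Mup11, Mup1, Mup8 and Mup19 (0.635 each), major urinary protein genes of near-identical sequence whose mean level was at most 0.0115 CPM, so these carry no information.

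Marker lists were set beside Adipoq in the same airway libraries, a set of 42 relations added after the data had been seen. Summed cartilage (r = 0.752, rho = 0.785), cardiac muscle (r = 0.702, rho = 0.682), skeletal muscle (r = 0.70, rho = 0.706) and smooth muscle genes (r = 0.682, rho = 0.695) were higher where Adipoq was higher, and lung endothelium (r = -0.775, rho = -0.784), alveolar type I (r = -0.772, rho = -0.811) and alveolar type II genes (r = -0.724, rho = -0.761) were lower (each permutation p = 1e-05, adjusted 3.5e-05, and without the 2 farthest libraries r ran from 0.681 to 0.769 for the first 4 lists and from -0.771 to -0.728 for the last 3). Of the fat lists, brown adipocyte genes were higher with Adipoq (r = 0.903, permutation p = 1e-05). Summed adipocyte lipid and hormone genes did not pass after adjustment (r = 0.221, permutation p = 0.0445, adjusted 0.0812), and summed lipolysis and receptor genes were lower (r = -0.339, adjusted 0.0016). A sum of CPM is weighted to the most abundant genes of a list. Single members of the first list, Retn, Aqp7, Thrsp, Adig, Acvr1c and Pck1, were among the genes most like Adipoq, so its sum does not describe each member. Other lists passed too, such as oesophagus (r = 0.624), mesothelium (r = 0.582), thymus (r = 0.515) and, in the other direction, alveolar macrophage (r = -0.46). The library total did not pass (r = -0.125, rho = -0.121, permutation p = 0.221). The part of the dissected tissue in the spread of the fat genes was not tested.

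Because most of the spread was shared, each gene was also taken relative to Adipoq in the same airway library (36 permutation tests, added after the data had been seen). Lep rose relative to Adipoq with dexamethasone by 0.96 on the log2 scale (permutation p = 1e-05, adjusted p = 9e-05) and was lower with smoke by 0.79 (permutation p = 5e-05, adjusted p = 0.00036), while with HDM at 11 weeks the ratio differed by 0.08 (permutation p = 0.653). The mean log2 ratio of Lep to Adipoq was -4.04 ± 0.43 in PBS AIR, -3.34 ± 0.89 with dexamethasone, -5.03 ± 0.82 with smoke and -3.42 ± 0.75 with smoke and dexamethasone (SD, n = 10 each). In HDM mice it was -4.06 ± 0.97 in AIR, -2.65 ± 0.64 with dexamethasone, -4.45 ± 0.64 with smoke and -4.34 ± 0.69 with both (SD, n = 10 each). Single backgrounds were not tested.

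**Figure D5:**
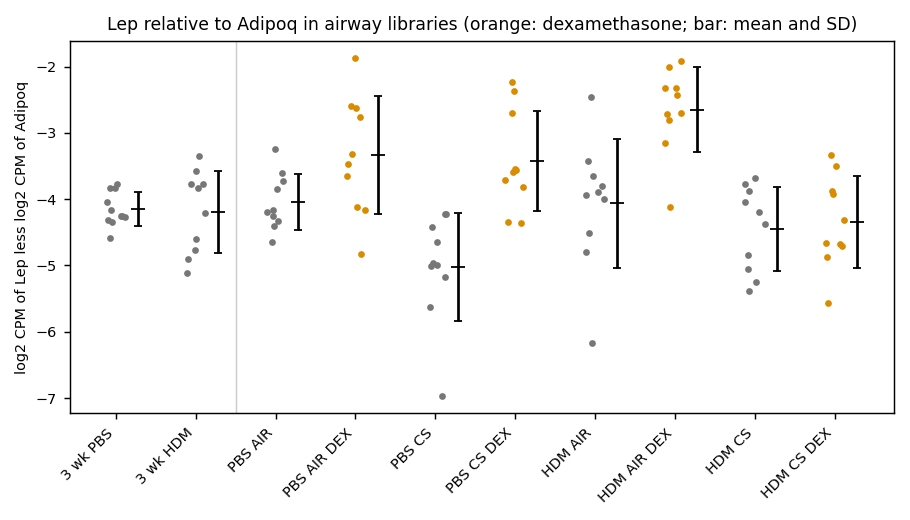
Log2 CPM of Lep less that of Adipoq in each airway library (y axis) by exposure (x axis), grey without and orange with dexamethasone, with bars for the group mean and SD (10 or 11 libraries). HDM AIR DEX is highest at -2.65 ± 0.64 and PBS CS lowest at -5.03 ± 0.82.

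Among the others, Fabp4 relative to Adipoq was higher with HDM at 11 weeks by 0.45 (permutation p = 1e-05, adjusted p = 9e-05), Plin1 with HDM at 3 weeks by 0.56 (permutation p = 0.00423, adjusted p = 0.019), and Cfd was lower with dexamethasone by 0.29 (permutation p = 0.00397, adjusted p = 0.019). Pparg and Lipe were higher relative to Adipoq with HDM, Pparg by 2.19 at 3 weeks and 2.04 at 11 weeks, and Lipe by 2.19 and 1.53. These ratios largely restate the fall of Adipoq, by 2.24 and 2.21 on log2 CPM. Neither Pparg (-0.05 and -0.17) nor Lipe (-0.05 and -0.68) was itself higher with HDM, nor were Fabp4 and Plin1. Car3 kept close to Adipoq, with differences between -0.13 and 0.15 under the 4 treatments, none of which passed.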

How the data were processed

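RNA-seq of dissected airways and parenchyma gave 1 deposited table of estimated counts for 43346 gene identifiers and 203 libraries (101 airway, 102 parenchyma, each correlation being over 1 of these sets). Per the labels, the authors used bcl2fastq 2.20.0.422, STAR 2.5.1b, RSEM 1.2.31 and kallisto 0.44.0 with mouse build mm10, and which of RSEM or kallisto gave the deposited expected counts is not given in the sources used here. Fractional values made up 20.29% of those above 0 and were rounded to whole counts. Identifiers were matched to GENCODE M21 symbols (42462 matched, 23106 with the same version).

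Groups came from the labels. Genes were kept when at least 9 libraries reached the CPM that 10 counts give at median depth. Differences were tested with limma-voom (limma 3.58.1, edgeR 4.0.16, R 4.3.3) on TMM-scaled libraries, with Benjamini-Hochberg adjustment over all genes of the fit and a threshold of 0.05. Treatment effects came from fits within 1 tissue and time, averaged at 11 weeks over the 4 backgrounds of the other treatments, and tissue differences from fits of 43 or 160 libraries. Alternatives included edgeR's quasi-likelihood test and DESeq2 1.42.0. Permutation tests were two-sided with 100000 resamples on log2 CPM with a prior count of 2, and the floor was 3 counts. Promoter windows were read from RefSeq. The fits were tested on simulated data. Depth ran from 13003087 to 40240680 counts, so 3 counts correspond to about 0.1 CPM, and floors cover counting error only. No pair of replicates agreed within sampling noise. The genes and lists were chosen with earlier results of these data known. Named list genes were the 4 with the largest tissue difference in each list, of which 1 is not reported here.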

Additional observations from a re-analysis of the deposited data

Results flagged for a closer look

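Dixon's test on groups of 10 libraries set 14 of 170 group values apart, where chance gives about 1 in 20. Airway library X109 of the HDM AIR group at 11 weeks was low for 5 genes, with Adipoq at 0.32 CPM, Cfd at 1.21 CPM, Car3 at 2.06 CPM, Fabp4 at 6.43 CPM and Lep at 0 CPM, and its cardiac muscle genes summed to 40.4 CPM. In parenchyma of the HDM group at 3 weeks Adipoq was high in X184 (0.316 CPM), Ucp1 was high in X4 (0.303 CPM), and X64 was low for Cidec (2.49 CPM) and high for Lipe (45.2 CPM). At 11 weeks in parenchyma, Adipoq was low in X186 of PBS AIR (0.0348 CPM), Fabp4 high in X173 of PBS CS (28.2 CPM), Cidec low in X90 of HDM AIR (0.72 CPM), Lipe low in X112 of HDM AIR DEX (22.1 CPM) and Pparg low in X160 of HDM CS DEX (12.3 CPM).

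The HDM effect in airways less that in parenchyma, tested as an interaction with limma-voom, was -0.48 on the log2 scale for Lipe at 3 weeks. At 11 weeks it was -2.23 for Fabp4, -2.0 for Lep, -0.47 for Pparg and -0.56 for Lipe.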

How the results depend on the processing

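Single-gene values were followed only where they had passed in the reported test. Of 979 such values under the alternatives 918 kept their direction and still passed, 61 no longer passed and 0 changed sign. Calls gained show only in the counts, and of 299 counts of genes called 246 stayed within 1.5 times. The cause of the other counts was not tested. With a log2FC limit of 1, the count was 3 in place of 5 for HDM in parenchyma at 3 weeks, 1 in place of 2 for smoke in parenchyma, 1 in place of 3 for dexamethasone in airways, 0 in place of 4 for dexamethasone in parenchyma, 0 in place of 1 and 2 in place of 4 for the HDM effect between tissues at 3 and 11 weeks, and 0 for both parenchymal interactions (main 2 and 1). With edgeR's quasi-likelihood test it was 4 in place of 7 for HDM in airways at 3 weeks, 5 for smoke in parenchyma, 5 for dexamethasone in airways, and 2 and 2 in place of 0 for smoke and dexamethasone between tissues. With DESeq2 it was 5 for smoke in parenchyma, 6 for dexamethasone in airways, 2 and 9 for the HDM effect between tissues at 3 and 11 weeks, 4 and 4 for smoke and dexamethasone between tissues, and 3 for smoke and dexamethasone together in parenchyma. With a filter at 10 CPM it was 5 in place of 8 for the tissues under HDM at 3 weeks, 2 and 3 for HDM in parenchyma at 3 and 11 weeks (main 5 and 6), and 2 for HDM between tissues at 3 weeks. With no filter it was 8 for HDM in parenchyma at 3 weeks and 1 for HDM and smoke in parenchyma. With permutation tests, called at an unadjusted p under 0.05, it was 8 for HDM in parenchyma at 3 weeks and 4 for smoke in parenchyma. In the same way it was 5 and 7 for HDM between tissues at 3 and 11 weeks, and 1 and 3 for smoke and dexamethasone between tissues. With sample quality weights it was 4 for smoke in parenchyma, 4 for HDM between tissues at 3 weeks and 1 for smoke between tissues. With all libraries of both tissues and times in 1 fit it was 1 for smoke in parenchyma, 5 and 1 for dexamethasone in airways and parenchyma, 0 for HDM between tissues at 3 weeks and 0 for HDM and smoke in parenchyma. With both tissues in 1 fit it was 1 for smoke in parenchyma and 5 and 1 for dexamethasone. With the library code set as covariate it was 5 for dexamethasone in airways and 1 for smoke between tissues. Without TMM it was 2 for HDM between tissues at 3 weeks and 1 for HDM and smoke in parenchyma, and with DESeq2 size factors 2 for the former. Without the 8 libraries nearest the other tissue it was 1 for smoke in parenchyma, 2 for HDM between tissues at 3 weeks and 1 for HDM and smoke in parenchyma, and without X173 and X174 it was 1 for the last. The count for spread was 5 in place of 8 at a prior count of 0.5. Leaving out each library at 3 weeks gave 9 to 9 for the tissues under PBS, 7 to 8 under HDM (Cidec lost in 12 of 43 fits), 7 to 7 for HDM in airways, 5 to 6 for HDM in parenchyma and 0 to 3 for HDM between tissues. The alternative without the 8 libraries was chosen after seeing the data. No paired analysis was possible because the labels do not say which libraries came from 1 mouse. Depth limits Lep, Plin1 and Adipoq in parenchyma, where most libraries hold few counts.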
